A study of Mus musculus with 6 samples.

Results

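The collagen chains were examined in whole lung from mice with and without intact glucocorticoid receptor (GR) dimerization after hemorrhagic shock (HS). A collagen chain is the product of 1 gene. The chains were taken as every protein-coding gene whose symbol consists of Col, a type number, the letter a and a chain number. This rule found 44 chains of 27 collagen types among 54532 genes, and used no expression value. They were sorted into 9 classes, with 11 fibrillar chains, 9 fibril-associated (FACIT) chains, 6 chains of the basement membrane network (type IV), 6 of beaded filaments (type VI), 4 transmembrane chains, 3 of hexagonal networks, 2 multiplexins, 1 anchoring fibril chain and 2 others.

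RNA came from 3 GR+/+ and 3 GRdim/dim mice on a mixed 129/SvEv x C57BL/6 background. The GRdim allele holds a point mutation within the part of the receptor that contacts DNA, which impairs dimerization, and the GR+/+ mice were littermates. All mice were 10 to 16 weeks old. Each was anesthetized and ventilated, held at a mean arterial pressure of 35 mmHg for 1 h by blood withdrawal, and then resuscitated for 4 h with its own blood, colloids and norepinephrine. Both groups had HS and no lungs without HS were compared, so the values give the genotypes after shock and not a response to it. The mutation is present in all cells of the body. The sequenced mice were 2 females and 1 male in the GR+/+ group and 1 female and 2 males in the GRdim/dim group. In bulk lung, fewer cells of a type and less RNA per cell cannot be told apart.

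Every collagen molecule is a triple helix of 3 chains built from Gly-X-Y repeats. Fibrillar types I, III and V give the interstitium its tensile strength, type VI forms beaded filaments around cells, and type IV forms the sheet-like network of basement membranes, where epithelium and capillary endothelium of the alveolus meet. Type IV chains assemble in fixed combinations: α1 with α2 in nearly all basement membranes, α3 with α4 and α5 in specialised ones including that of the alveolus, and α5 with α6. Glucocorticoids are known for lowering collagen synthesis in fibroblasts.

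Type IV chains also share an unusual gene arrangement, because their genes lie in head-to-head pairs. *Col4a4* (chr1:82448423-82586849, minus strand) and *Col4a3* (chr1:82586921-82722059, plus strand) start 71 bases apart. *Col4a1* (chr8:11198423-11312826, minus strand) and *Col4a2* (chr8:11312805-11449287, plus strand) overlap by 22 bases at their starts, and 1308 bases separate *Col4a6* (chrX:141165403-141474076, minus strand) from *Col4a5* (chrX:141475385-141689234, plus strand). These were the 3 head-to-head pairs among the 8 pairs of neighbouring chains under 100 kb apart. The stretch between the *Col4a4* and *Col4a3* starts is shown first, because both chains had an unadjusted edgeR p under 0.05. The stretches in front of *Col8a2*, *Col15a1* and *Col17a1* follow, since they are the other chains with an unadjusted p under 0.05. They are read from the RefSeq promoter windows of build GRCm38.p6, 5′ to 3′ on the strand of the gene named, without any base of an annotated exon, and capitals mark a motif named in the next paragraph.
Col4a4 (chr1:82586850-82586920): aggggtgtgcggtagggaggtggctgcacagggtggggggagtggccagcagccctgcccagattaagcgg
Col8a2 (chr4:126286544-126286792): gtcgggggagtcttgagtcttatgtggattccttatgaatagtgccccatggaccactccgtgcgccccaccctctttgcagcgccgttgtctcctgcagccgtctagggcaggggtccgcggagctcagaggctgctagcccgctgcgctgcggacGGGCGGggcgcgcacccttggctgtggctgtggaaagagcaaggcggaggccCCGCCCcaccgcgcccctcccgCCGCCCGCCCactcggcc
Col15a1 (chr4:47207762-47208011): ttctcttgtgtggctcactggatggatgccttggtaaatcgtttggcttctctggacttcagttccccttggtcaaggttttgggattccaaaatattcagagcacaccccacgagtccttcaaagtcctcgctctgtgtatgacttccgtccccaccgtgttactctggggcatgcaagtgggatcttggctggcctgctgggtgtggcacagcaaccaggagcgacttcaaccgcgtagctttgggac
Col17a1 (chr19:47692095-47692292): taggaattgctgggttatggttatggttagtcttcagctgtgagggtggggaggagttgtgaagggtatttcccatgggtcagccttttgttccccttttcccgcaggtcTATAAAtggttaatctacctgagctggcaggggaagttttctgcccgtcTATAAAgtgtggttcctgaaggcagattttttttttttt

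The short motifs searched on both strands were the TATA box (TATAAA), the CCAAT box (CCAAT), the GC box (GGGCGG), the GR half-site (AGAACA), the GR palindrome made of this half-site and its reverse complement 3 bases apart, which contains the half-site, and the palindrome of TTC and GAA 3 bases apart. The 71 bases between *Col4a4* and *Col4a3* held none of them and had a GC content of 69.0%. Of all 32851 promoter windows cut to that length, 20.7% held a GC box and 4.51% a GR half-site. The *Col8a2* stretch held 4 GC boxes, some of them overlapping, where 32.7% of windows of its length had at least 1. The *Col17a1* stretch held 2 TATA boxes, a motif found in 9.90% of windows of its length. Those windows reach the RefSeq start, while the *Col17a1* stretch ends 52 bases before it, so the positions differ. The *Col15a1* stretch held none of the motifs. Over the 250 bases before the start, 35 chains had a window, and a chain was counted if any of its windows held the motif. A GR half-site was found for 2 chains (*Col20a1* and *Col9a1*), where 16.1% of all windows held one. A GC box was found for 21 chains (60%), where 32.7% of all windows held one. The shares of all windows count each window and not each gene. A match or its lack describes only these letters.

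Read counts per gene were available for each library. Total counts were 16361747 to 32082940 in GR+/+ and 15687734 to 24444604 in GRdim/dim libraries. Levels below are in CPM, the count of a gene relative to the TMM-scaled total of its library per 1000000 counts, and differences are log2 fold changes of GRdim/dim over GR+/+ from edgeR's quasi-likelihood test, with SE, n = 3 and Benjamini-Hochberg adjustment over 16568 genes. A gene was called where the adjusted p was under 0.05 and the log2 fold change beyond 0.5, which held for 28 genes (0.169%). Alveolar type 2 cell markers, which define lung tissue, were strong in all libraries (summed level 16950 to 25140 CPM). Expression of *Xist* against Y-linked genes matched the stated numbers of females and males, with GR+/+ replicate 1 and GRdim/dim replicates 1 and 3 male by this measure.

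Collagen transcripts made up 0.671% of all counts in GR+/+ replicate 1 (exact 95% interval 0.668 to 0.675%, counting error only), 0.365% in replicate 2 and 0.336% in replicate 3 (0.334 to 0.338%). In GRdim/dim replicates 1, 2 and 3 they made up 0.494%, 0.382% and 0.362%. The groups overlapped, and GR+/+ replicate 1 stood apart with the largest share.

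Compared per kilobase of exon, the type IV chains *Col4a2* and *Col4a1* were the most abundant chains of the lung, with medians over the 6 libraries of 103.6 and 97.0 CPM per kb. The type VI chain *Col6a1* followed with 60.3, then the fibrillar chains *Col1a1* with 49.5, *Col1a2* with 33.7 and *Col3a1* with 22.4. The order of *Col4a1* and *Col4a2* changed between libraries, since their ratio per length ran from 0.841 to 1.15. Per length, *Col1a1* exceeded its type I partner *Col1a2* in every library, at a ratio of 1.03 to 1.66. In CPM, *Col1a2* was the higher chain in every library, so this order rests on the annotated exon lengths of 6563 and 12426 bases. The place of *Col6a1* (4380 bases) above *Col1a2* rests on the lengths too. Mean levels of *Col6a1* were 287.4 CPM in GR+/+ and 273.1 CPM in GRdim/dim, against 359.4 and 426.7 CPM for *Col1a2*. The protein holds 2 *Col1a1* chains for each *Col1a2* chain. Leading chains of the other classes were *Col23a1* (transmembrane, 17.4), *Col18a1* (multiplexin and source of endostatin, 8.48), *Col16a1* (FACIT, 7.20), *Col8a2* (hexagonal network, 4.80), *Col7a1* (anchoring fibrils, 1.52) and *Col28a1* (0.155 CPM per kb).

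**Figure D1:**
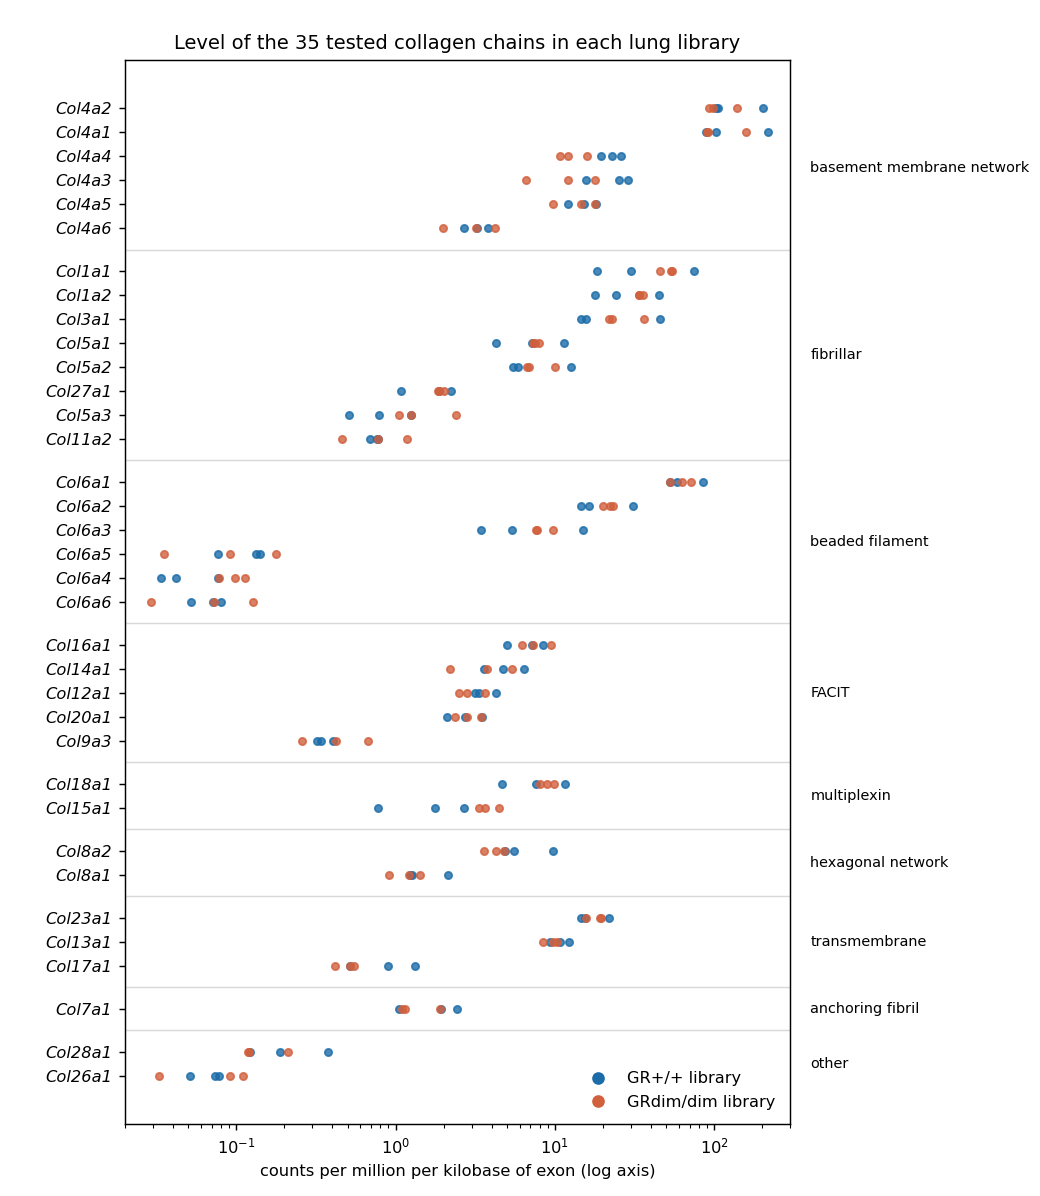
Level of each of the 35 tested collagen chains in the 6 lung libraries, in TMM-scaled CPM per kilobase of exon on a log axis, with chains grouped by class and ordered by their median. Blue points are GR+/+ and orange points GRdim/dim libraries. The chains span from *Col4a2* at a median of 103.6 to below 0.1, and for most chains points of both colours mix.

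The remaining 9 chains had too few counts to be tested. *Col9a1* had no count in any library, which allows at most 0.0935 to 0.191 CPM at 3 counts per library. *Col2a1*, the main chain of cartilage fibrils, had 1 to 6 counts per library, *Col11a1* 0 to 7, and *Col10a1* and *Col9a2* 0 to 1. Of the 10 cartilage markers, *Acan* and *Matn1* were at 0 in all 6 libraries, but 4 others had enough counts to be tested. The 10 summed to 103.5 to 109.8 CPM in GR+/+ and 78.9 to 128.2 CPM in GRdim/dim libraries. *Col19a1*, *Col24a1* and *Col25a1* had 0 to 15 counts per library. *Col22a1* was counted 7, 7 and 0 times in the GR+/+ libraries, and 8, 11 and 9 times in those of GRdim/dim.

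None of the 35 tested chains was called by edgeR, beside 0.169% of all genes. DESeq2 called 1 chain, *Col4a4*, beside 1.70% of 16150 genes. At an unadjusted p under 0.05, 4 chains were lower in GRdim/dim (*Col4a3*, *Col4a4*, *Col8a2* and *Col17a1*), where 4.68% of all genes were, and 1 chain was higher (*Col15a1*), where 4.91% were. Libraries of the genotypes did not overlap for 2 chains that were lower (*Col4a4* and *Col8a2*, beside 7.05% of genes) and 2 that were higher (*Col15a1* and *Col6a4*, beside 7.77%). The fitted difference was above 0 for 17 chains and below 0 for 18, with a median of −0.0017 and a range of −0.92 to 1.13, where the median of all genes was 0.0064.

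**Figure D2:**
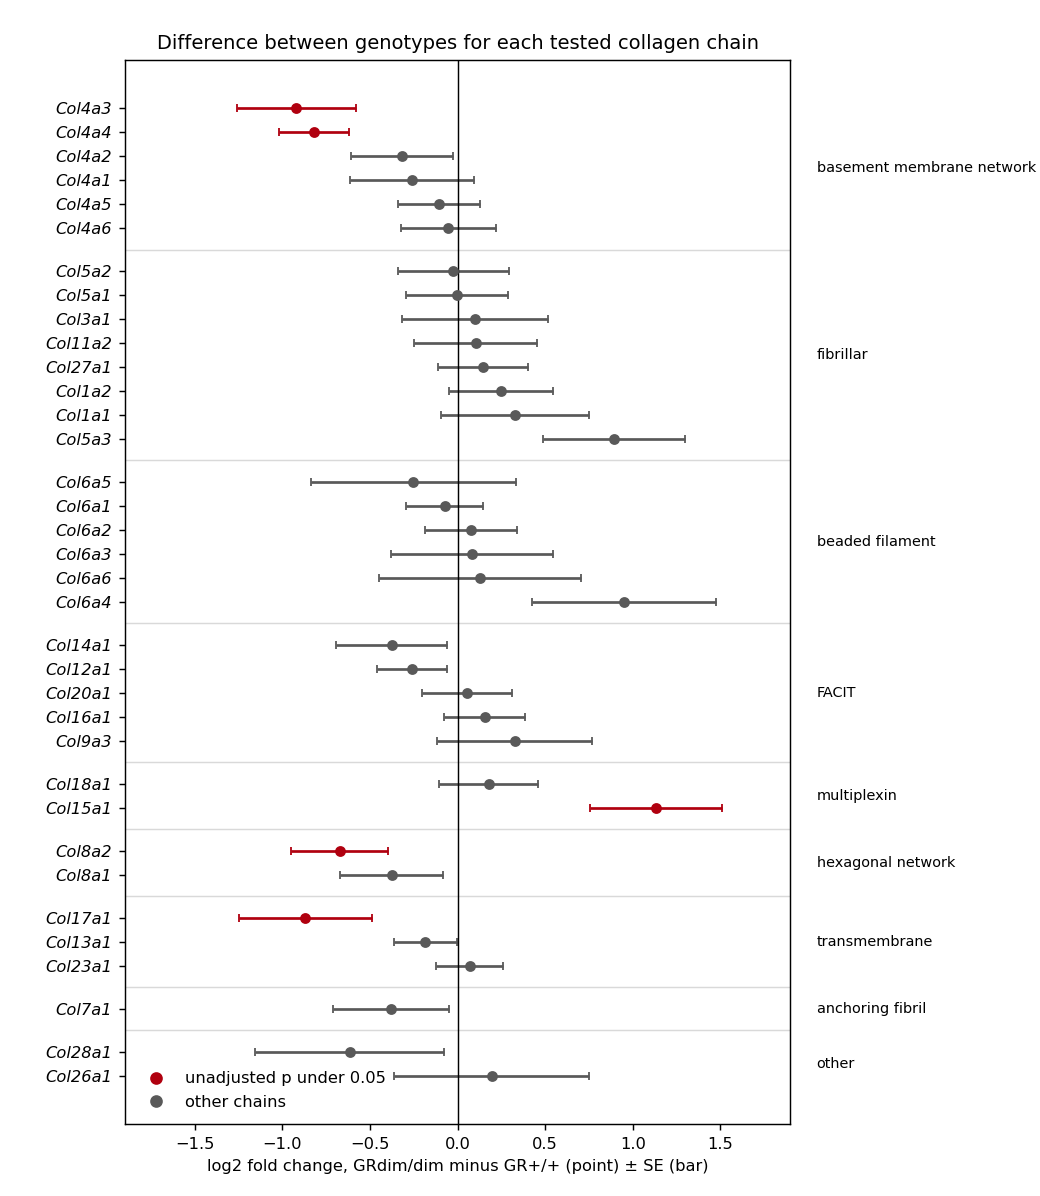
Log2 fold change of GRdim/dim over GR+/+ for each of the 35 tested chains (points) with its SE (bars), grouped by class and ordered within a class. Red marks the 5 chains with an unadjusted p under 0.05, of which *Col4a3*, *Col4a4*, *Col8a2* and *Col17a1* lie below 0 and *Col15a1* above; all 6 type IV chains lie below 0.

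The smallest p among the chains was that of *Col4a4*, which encodes the α4 chain of type IV collagen. It measured 242.0, 205.6 and 275.9 CPM in GR+/+ replicates 1 to 3 and 168.6, 127.4 and 114.4 CPM in GRdim/dim replicates 1 to 3. Every GRdim/dim library was below every GR+/+ library. The log2 fold change was −0.82 (SE 0.20, edgeR adjusted p = 0.204), so the change did not pass the adjustment. By DESeq2 the adjusted p was 0.0227, and over the alternatives tried it ran from 0.00675 to 0.412, lowest with no filter on low counts. With any 1 library left out, the unadjusted edgeR p of *Col4a4* stayed between 0.000847 and 0.0116.

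*Col4a3*, its head-to-head neighbour, measured 250.3, 156.0 and 284.3 CPM in GR+/+ and 177.7, 121.0 and 65.9 CPM in GRdim/dim libraries. Here the groups overlapped, since GRdim/dim replicate 1 lay above GR+/+ replicate 2. The log2 fold change was −0.92 (SE 0.34, edgeR adjusted p = 0.432, and 0.00125 to 0.731 over the alternatives, lowest with no filter on low counts). The unadjusted p was under 0.05 in 2 of the 6 fits that left out 1 library, with a range of 0.0034 to 0.0769. The antisense gene *C430014B12Rik* shares 563 exon bases (5.65%) with *Col4a3* but had 71 counts in all libraries together, against 22969 for *Col4a3*. Per length, the *Col4a4* to *Col4a3* ratio was 0.891 to 1.63 over the libraries.

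The third chain of this trimer, *Col4a5* on the X chromosome, had a fitted difference near 0. It measured 121.5, 81.3 and 102.3 CPM in GR+/+ and 119.8, 97.8 and 65.4 CPM in GRdim/dim libraries, a log2 fold change of −0.11 (SE 0.24). The groups overlapped, with GRdim/dim replicate 3 below all GR+/+ libraries. The ratio of *Col4a5* to *Col4a3* per length was 0.720, 0.773 and 0.534 in GR+/+ and 1, 1.20 and 1.47 in GRdim/dim libraries, with no overlap. This is 1 of 12 ratios computed, and 3 against 3 libraries allow a smallest exact permutation p of 0.1 (two-sided). *Col4a6*, the partner of *Col4a5* in the remaining trimer, measured 21.3 to 30.4 CPM in GR+/+ and 15.8 to 33.5 CPM in GRdim/dim libraries, with a log2 fold change of −0.05 (SE 0.27).

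The common chains *Col4a1* and *Col4a2* varied mainly with single libraries. *Col4a1* measured 1622, 762.1 and 662.5 CPM in GR+/+ and 1184, 685.6 and 671.6 CPM in GRdim/dim libraries, with a log2 fold change of −0.26 (SE 0.36). *Col4a2* followed the same library order in GRdim/dim, with 1344, 673.5 and 698.6 CPM in GR+/+ and 913.9, 649.4 and 614.3 CPM in GRdim/dim libraries (log2 fold change −0.32, SE 0.29). For both chains replicate 1 was the highest library of its genotype. Without GR+/+ replicate 1 the fold changes were 0.25 and 0.09, so the direction turned. Against *Col4a2*, the per-length level of *Col4a4* was 0.112, 0.190 and 0.246 in GR+/+ and 0.115, 0.122 and 0.116 in GRdim/dim libraries, which overlap through GR+/+ replicate 1.

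**Figure D3:**
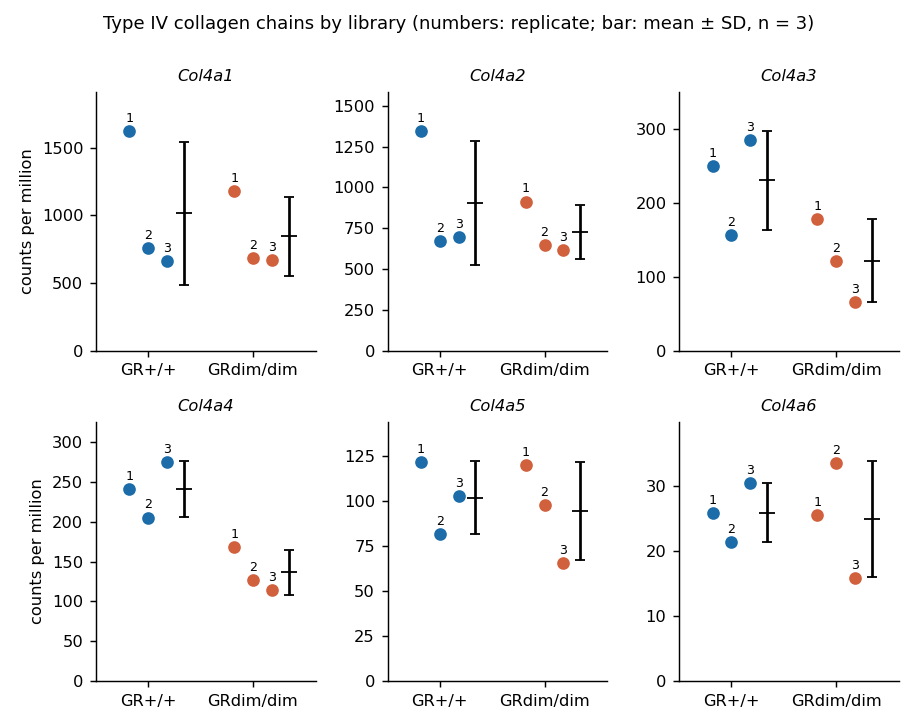
TMM-scaled CPM (linear axes from 0) of the 6 type IV chains in each library, with replicate numbers above the points and the mean ± SD (n = 3) as bars. *Col4a4* separates the genotypes, *Col4a3* nearly does, and *Col4a1* and *Col4a2* are highest in replicate 1 of each genotype.

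Markers of alveolar type 1 cells, which lie on this basement membrane, were read beside *Col4a3* and *Col4a4*. Of the 8 markers, 7 had a log2 fold change below 0 (median −0.25), and none was called. At an unadjusted p under 0.05, 1 was lower (*Akap5*, log2 fold change −0.63, SE 0.25), where 4.68% of all genes were. Their summed level was 4388 to 6656 CPM in GR+/+ and 4358 to 5548 CPM in GRdim/dim libraries, which overlapped. The part of these cells in the type IV difference was not tested.

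Fibrillar chains, the rope-like collagens of the interstitium, differed more among GR+/+ lungs than between genotypes. *Col1a1* measured 487.4, 196.5 and 120.1 CPM in GR+/+ libraries and 357.9, 297.4 and 352.7 CPM in GRdim/dim libraries. *Col1a2* measured 556.8, 301.0 and 220.4 CPM against 416.7, 443.8 and 419.5 CPM, and *Col3a1* 446.7, 153.7 and 143.0 CPM against 356.9, 215.3 and 224.6 CPM. In each case all 3 GRdim/dim libraries lay inside the GR+/+ range. The log2 fold changes were 0.33 (SE 0.42) for *Col1a1*, 0.25 (SE 0.30) for *Col1a2* and 0.10 (SE 0.42) for *Col3a1*, with edgeR adjusted p of 0.866 to 0.971. The highest GR+/+ library exceeded the lowest 4.06-fold for *Col1a1*, 2.53-fold for *Col1a2* and 3.12-fold for *Col3a1*, where the GRdim/dim libraries spanned 1.20-fold, 1.07-fold and 1.66-fold.

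Of the 8 tested fibrillar chains, 6 lay above 0 and 2 below, with a median of 0.12 and none with an unadjusted p under 0.05. *Col5a1* and *Col5a2*, the type V chains that help set fibril diameter, had log2 fold changes of −0.0017 (SE 0.29) and −0.02 (SE 0.32). The minor type V chain *Col5a3* measured 8.55, 5.40 and 3.49 CPM in GR+/+ and 7.12, 16.4 and 8.52 CPM in GRdim/dim libraries (log2 fold change 0.89, SE 0.40, edgeR adjusted p = 0.521). Its GRdim/dim values rest most on replicate 2, and without that library the unadjusted p of the chain reached 0.294, the highest of the 6 fits with 1 library left out.

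Type VI chains form beaded filaments, and their spread differed between members. *Col6a1* measured 374.3, 255.6 and 232.1 CPM in GR+/+ and 272.7, 314.5 and 232.0 CPM in GRdim/dim libraries (log2 fold change −0.07, SE 0.22). *Col6a3* ranged 4.36-fold within GR+/+, from 41.0 to 178.6 CPM, and 1.28-fold within GRdim/dim, from 91.0 to 116.7 CPM. Its log2 fold change was 0.08 (SE 0.46). The low chains *Col6a5* (0.720 to 1.33 CPM in GR+/+, 0.332 to 1.68 CPM in GRdim/dim) and *Col6a6* (0.478 to 0.731 CPM and 0.270 to 1.16 CPM) ranged more widely in GRdim/dim, 5.05-fold and 4.31-fold against 1.85-fold and 1.53-fold. *Col6a4*, at 0.286 to 0.657 CPM in GR+/+ and 0.665 to 0.971 CPM in GRdim/dim libraries, did not overlap between genotypes but rests on 73 counts in all (log2 fold change 0.95, SE 0.52).

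**Figure D4:**
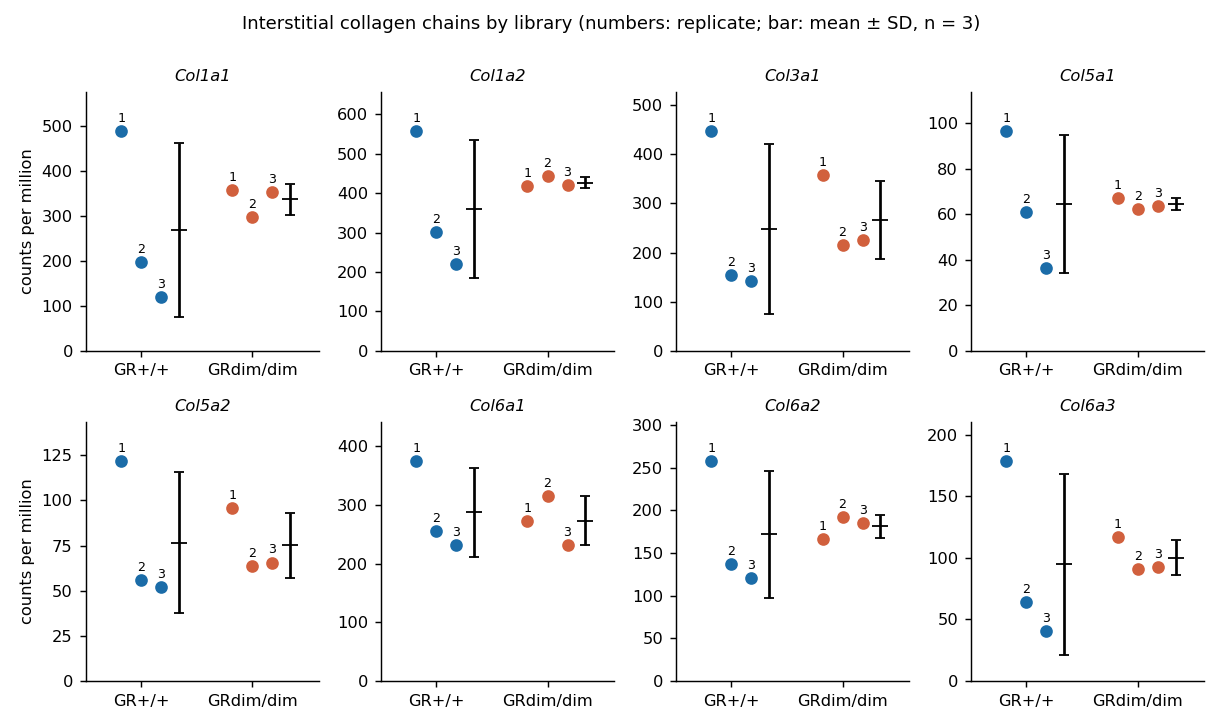
TMM-scaled CPM (linear axes from 0) of 5 fibrillar and 3 type VI chains in each library, with replicate numbers above the points and the mean ± SD (n = 3) as bars. GR+/+ replicate 1 is the highest library for all 8 chains, and replicate 3 the lowest GR+/+ library.

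Spread within a genotype was counted over all tested chains. Of the 35 tested chains, 24 (68.6%) had a wider range, highest over lowest library, in GR+/+ than in GRdim/dim, where 38.5% of 16514 genes did. The median range of the chains was 2-fold in GR+/+ and 1.49-fold in GRdim/dim libraries, and that of all genes 1.37-fold and 1.51-fold. GR+/+ replicate 1 was the highest GR+/+ library for 21 chains (60.0%), beside 30.6% of all genes. These counts are a description, since chains made by the same cells are not independent of each other.

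Each fit was repeated with 1 library left out. The fit without GR+/+ replicate 1, the only male of its group, is given first because that library carried so much of the spread. Leaving out GR+/+ replicate 1, 7 chains were higher in GRdim/dim at an unadjusted p under 0.05 (3.63% of all genes) and 2 lower (3.31%). The 7 were *Col15a1*, *Col1a1*, *Col6a3*, *Col3a1*, *Col1a2*, *Col5a3* and *Col6a2*, most of them interstitial chains. *Col1a1* then had a log2 fold change of 1.09 (SE 0.26, edgeR adjusted p = 0.276) and *Col3a1* one of 0.84 (SE 0.27, edgeR adjusted p = 0.466), and all 8 fibrillar chains lay above 0. None of the 7 passed the adjustment. Each of the 7 had its highest GR+/+ value in replicate 1, so leaving it out raised their fitted differences by construction. This library was picked from the same values, so these counts are a description. Leaving out GR+/+ replicate 3 instead, the lowest library, 2 of the 8 fibrillar chains lay above 0 and the *Col1a1* fold change was −0.03.

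Marker levels in the same libraries also varied. Summed smooth muscle and pericyte markers were 1142, 1070 and 455.2 CPM in GR+/+ and 926.9 to 1032 CPM in GRdim/dim libraries, so GR+/+ replicate 3 was low for these as well. Cardiomyocyte markers, cells that line the pulmonary veins in mice, summed to 133.5 CPM in that library and 371.7 to 841.3 CPM in the others. Summed fibroblast markers were 2555 to 3301 CPM in GR+/+ and 2383 to 2598 CPM in GRdim/dim libraries, with 6 of 9 markers below 0. At an unadjusted p under 0.05, 2 were lower (*Scara5* and *Npnt*), where 4.68% of all genes were. DESeq2 called 1 of the 9 fibroblast markers, *Scara5* (DESeq2 adjusted p = 0.00559), beside 1.70% of all genes. Their part in the collagen spread was not tested.

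*Col15a1*, a multiplexin of the basement membrane zone of vessels and muscle, was the chain with the largest fold change. It measured 17.2, 11.3 and 4.92 CPM in GR+/+ and 28.2, 21.3 and 23.2 CPM in GRdim/dim libraries. All GRdim/dim libraries were above all GR+/+ libraries. The log2 fold change was 1.13 (SE 0.38, edgeR adjusted p = 0.369). Over the alternatives the adjusted p was 0.00239 to 0.572, lowest with no filter on low counts. The unadjusted edgeR p was under 0.05 in all 6 fits that left out 1 library. The other multiplexin, *Col18a1*, measured 81.0, 53.4 and 32.6 CPM in GR+/+ and 56.8, 62.4 and 69.4 CPM in GRdim/dim libraries (log2 fold change 0.18, SE 0.28). Of 9 endothelial markers, 7 lay below 0 (median −0.19). Of these 9, 2 were higher (*Cldn5* and *Car4*) and 1 lower (*Kdr*) at an unadjusted p under 0.05 (4.91% and 4.68% of all genes). DESeq2 called 1 of the 9 (1.70% of all genes). The sum of the 9 was 2771 to 4230 CPM in GR+/+ and 3235 to 3788 CPM in GRdim/dim libraries. Of 11 smooth muscle and pericyte markers, 7 lay above 0 (median 0.08). *Actg2* (log2 fold change 0.85, SE 0.27) and *Rgs5* (0.67, SE 0.24) were higher at an unadjusted p under 0.05 (4.91% of all genes). These 2 and *Acta2* (log2 fold change 0.56, SE 0.30) did not overlap between genotypes, which makes 3 of the 11 (7.77% of all genes). The part of vessel and muscle cells in the *Col15a1* difference was not tested.

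*Col8a2*, a short-chain collagen of hexagonal networks, measured 21.7, 24.7 and 43.7 CPM in GR+/+ and 16.01, 19.2 and 21.4 CPM in GRdim/dim libraries. The groups did not overlap, but the gap between the lowest GR+/+ and the highest GRdim/dim library was small. The log2 fold change was −0.67 (SE 0.27, edgeR adjusted p = 0.472), and the unadjusted p was under 0.05 in 3 of 6 fits with 1 library left out. Its partner *Col8a1* measured 9.62, 16.6 and 9.91 CPM in GR+/+ and 11.1, 9.47 and 7.17 CPM in GRdim/dim libraries (log2 fold change −0.38, SE 0.29).

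*Col17a1*, the transmembrane collagen of hemidesmosomes, measured 7.65, 5.16 and 2.99 CPM in GR+/+ and 3.18, 2.99 and 2.39 CPM in GRdim/dim libraries. GR+/+ replicate 3 lay within the GRdim/dim range. The log2 fold change was −0.87 (SE 0.38, edgeR adjusted p = 0.5003), and the unadjusted p was under 0.05 in 1 of 6 fits with 1 library left out. Of 4 markers of basal cells, the airway cells best known for hemidesmosomes, 2 were tested, with log2 fold changes of −1.31 and 0.04. At an unadjusted p under 0.05, 1 was lower, where 4.68% of all genes were. *Krt5* was at 0 to 0.324 CPM and *Krt14* at 0 to 0.517 CPM. *Krt15* was at 1.62 to 7.71 CPM in GR+/+ and 0.872 to 3.10 CPM in GRdim/dim libraries. The part of basal cells in the *Col17a1* difference was not tested.

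The FACIT, anchoring fibril and remaining transmembrane chains had no member with an unadjusted p under 0.05. *Col16a1* measured 33.7 to 56.8 CPM in GR+/+ and 42.1 to 63.3 CPM in GRdim/dim libraries (log2 fold change 0.15, SE 0.23). *Col23a1* measured 83.3 to 124.3 CPM and 89.3 to 111.5 CPM (log2 fold change 0.07, SE 0.19). The 5 tested FACIT chains lay between −0.38 and 0.33. *Col7a1*, the anchoring fibril chain, measured 10.8 to 24.9 CPM and 11.3 to 19.5 CPM (log2 fold change −0.38, SE 0.33), and *Col28a1* 0.600 to 1.85 CPM and 0.582 to 1.03 CPM (log2 fold change −0.62, SE 0.54).

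Basement membrane partners of type IV collagen include the laminins, nidogens, perlecan and agrin. Of 20 partner genes tested, 17 had a log2 fold change below 0 with a median of −0.27, where 49.1% of all genes lay below 0. Without GR+/+ replicate 1, 13 of the 20 lay below 0 with a median of −0.08, and the summed type IV chains went from a log2 ratio of −0.37 to −0.02. None of the partners was called by edgeR and 1 by DESeq2 (1.70% of all genes). At an unadjusted p under 0.05, 4 were lower (4.68% of all genes) and none higher, and without GR+/+ replicate 1 only 1 was lower. *Lamc3*, the laminin γ3 chain, measured 51.2, 38.3 and 12.7 CPM in GR+/+ and 9.54, 5.65 and 10.1 CPM in GRdim/dim libraries. It did not overlap between genotypes (7.05% of all genes were lower without overlap), although GR+/+ replicate 3 lay close to the GRdim/dim values. Its log2 fold change was −2.02 (SE 0.45), with an adjusted p of 0.171 by edgeR and 7.4e-05 by DESeq2. Over all alternatives the adjusted p was 1.12e-10 to 0.375, lowest with no filter on low counts.

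*Lama5*, the laminin α5 chain of most adult basement membranes, measured 548.5, 479.0 and 449.8 CPM in GR+/+ and 365.5, 320.8 and 320.4 CPM in GRdim/dim libraries. No library overlapped (7.05% of all genes were lower without overlap), and the log2 fold change was −0.55 (SE 0.18, edgeR adjusted p = 0.358). *Lama3*, the epithelial laminin α3 chain, measured 144.9, 69.3 and 123.9 CPM against 78.0, 58.1 and 33.7 CPM (log2 fold change −0.99, SE 0.33, edgeR adjusted p = 0.372). Over the alternatives its adjusted p was 0.000317 to 0.725, lowest with no filter on low counts. Its library order was that of *Col4a3* within GRdim/dim, with replicate 2 the lowest GR+/+ library for both. *Npnt*, an integrin ligand of the basement membrane, had a log2 fold change of −0.44 (SE 0.20, edgeR adjusted p = 0.520).

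Genes that fold and hydroxylate procollagen, a list of 21 that holds the prolyl and lysyl hydroxylases and the chaperone *Serpinh1*, showed no common direction, with 14 above 0, 7 below and a median of 0.06. No member was called by edgeR (0.169% of all genes) and 1 by DESeq2 (1.70%). This was *Fkbp14*, a prolyl isomerase of the endoplasmic reticulum that acts on collagen, at 37.6, 42.2 and 48.3 CPM in GR+/+ and 24.2, 21.3 and 23.6 CPM in GRdim/dim libraries. Its groups did not overlap, as held for 7.05% of all genes that were lower. Its log2 fold change was −0.89 (SE 0.18), with an adjusted p of 0.119 by edgeR and 0.00565 by DESeq2 (0.00565 to 0.308 over the alternatives). It was the only member with an unadjusted p under 0.05, where 4.68% of all genes were lower.

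Among 14 tested genes for procollagen cleavage and cross-linking, 7 lay above 0 and 7 below. At an unadjusted p under 0.05, 1 was higher (4.91% of all genes) and 2 were lower (4.68%). *Tll1*, a protease of the family that removes C-propeptides, measured 4.12, 5.40 and 4.07 CPM in GR+/+ and 15.3, 9.51 and 7.94 CPM in GRdim/dim libraries. *Pcolce2*, an enhancer of that cleavage, measured 231.2, 280.2 and 193.6 CPM against 113.2, 158.7 and 135.6 CPM. Neither gene overlapped between genotypes, as held for 7.77% of all genes that were higher and 7.05% that were lower. *Tll1* had a log2 fold change of 1.27 (SE 0.31), with an adjusted p of 0.207 by edgeR and 0.0121 by DESeq2 (0.00943 to 0.466 over the alternatives). *Pcolce2* had one of −0.79 (SE 0.20), with an adjusted p of 0.223 by edgeR and 0.0299 by DESeq2 (0.0104 to 0.473 over the alternatives). For *Tll1* and *Pcolce2* the lowest value came from the fit with no filter on low counts. The cross-linking transglutaminase *Tgm2* had a log2 fold change of −0.66 (SE 0.24, edgeR adjusted p = 0.426), and its groups overlapped.

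**Figure D5:**
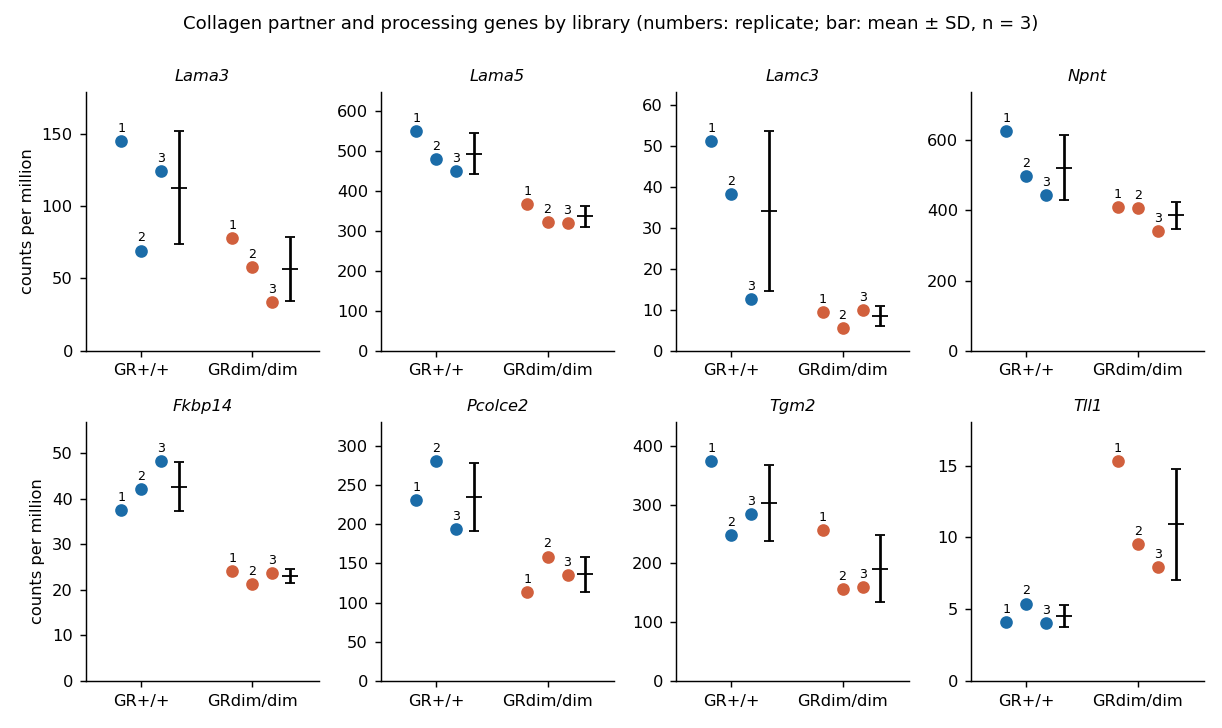
TMM-scaled CPM (linear axes from 0) of 4 basement membrane partners (top) and 4 collagen folding, cleavage and cross-linking genes (bottom) in each library, with replicate numbers above the points and the mean ± SD (n = 3) as bars. *Lama5*, *Lamc3*, *Npnt*, *Fkbp14* and *Pcolce2* are lower and *Tll1* is higher in every GRdim/dim library than in every GR+/+ library. Of all genes tested, 7.05% were lower and 7.77% higher without overlap. The genes shown were picked for an unadjusted edgeR p under 0.05.

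Fibril-associated matrix proteins such as decorin, lumican and fibronectin gave 6 genes above 0 and 11 below of 17 tested (median −0.08), with no gene at an unadjusted p under 0.05 by edgeR and none called by edgeR or DESeq2. Of 13 collagen receptors and uptake genes, 9 lay above 0 (median 0.08), 1 with an unadjusted p under 0.05 (4.91% of all genes). This was *Lair1*, an inhibitory collagen receptor of leukocytes, with a log2 fold change of 1.16 (SE 0.48, edgeR adjusted p = 0.482) and overlapping groups.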

How the data were processed

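Lung RNA was isolated with Trizol, captured by poly(A) and sequenced by a commercial provider, 1 library per mouse. The deposited table gives raw counts of reads for each gene, with coordinates of build mm10 and gene lengths. DESeq2 is named in the submitters' processing notes; the aligner, the counter and its strand setting are not given in the sources used here. All 44 chains had the coordinates of GENCODE M21, and 13 shared exon bases with another gene, at most 6.07% of a chain. Counts of 6 libraries, 15687734 to 32082940 per library, were grouped by the genotype in the labels.

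Counts were analysed in R 4.3.3 with edgeR 4.0.16 (TMM, filterByExpr, robust glmQLFit, glmQLFTest with genotype alone) and Benjamini-Hochberg adjustment over 16568 genes. A prior count of 2 entered the log CPM of the sex-linked measure, not the fits. The SE is the log2 fold change divided by the square root of F. DESeq2 1.42.0 was an alternative, beside RLE scaling, other filters, a replicate block, a covariate for sex-linked expression and each library left out; the counts of gene lists without each library were added after seeing the data. Fits were tested on simulated data. The members and lists were chosen with earlier results of these data known. Chains given by library were those with an unadjusted p under 0.05 or called by either tool, their trimer partners, the leading chain of each class per length and *Col1a1*, *Col1a2*, *Col3a1* and *Col4a1* to *Col4a6*. *Col5a3*, *Col6a2*, *Col6a3* to *Col6a6* and chains in the head-to-head, motif and low-count counts were added after their values were seen. From each pathway list, members with an unadjusted p under 0.05 were named; of the marker lists, those beside a result. The labels call the libraries separate samples of a genotype, and the methods state 1 mouse per day. Promoters were matched by symbol in RefSeq windows, where 35 of the 44 chains had one.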

Additional observations from a re-analysis of the deposited data

How the results depend on the processing

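The counts of called chains were 0 higher and 0 lower, and became 1 higher and 2 lower with no filter on low counts and 1 lower with DESeq2. The causes were not tested. At an unadjusted p under 0.05, the 1 higher chain became 2 with no filter, with at least 10 counts in every library and with DESeq2, and 1 to 7 with a library left out. The 4 lower chains became 2 to 3 with a library left out, and 3 with the sex covariate was within 1.5 times the count. The correlations of the deviations of same-numbered libraries were 0.218, 0.036 and -0.055, and those of the other combinations -0.266 to 0.194. With 3 libraries of each genotype, these values cannot decide whether the numbers in the labels pair the libraries. With the replicate block the counts were 0 called in either direction, 1 higher and 4 lower, as without it.

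Of 35 chains, 13 had the same sign under every alternative. Among the chains named by the rule, the direction turned with a library left out for *Col4a1* (-0.57 to 0.25), *Col4a2* (-0.51 to 0.085), *Col4a5* (-0.31 to 0.10), *Col4a6* (-0.33 to 0.19), *Col6a1* (-0.21 to 0.17), *Col16a1* (-0.033 to 0.33), *Col1a1* (-0.025 to 1.09), *Col1a2* (-0.0076 to 0.72), *Col3a1* (-0.18 to 0.84), *Col18a1* (-0.10 to 0.55) and *Col23a1* (-0.041 to 0.27). The other chains that turned under at least 1 alternative, given with their range over all of them, were *Col5a1* (-0.29 to 0.41), *Col5a2* (-0.24 to 0.48), *Col6a2* (-0.12 to 0.49), *Col6a3* (-0.28 to 0.93), *Col6a5* (-0.92 to 0.18), *Col6a6* (-0.40 to 0.52), *Col9a3* (-0.07 to 0.62), *Col11a2* (-0.26 to 0.39), *Col20a1* (-0.12 to 0.26), *Col26a1* (-0.10 to 0.56) and *Col27a1* (-0.11 to 0.38). Among the chains named by the rule, the direction turned with the sex covariate for *Col4a6* (0.047) and *Col3a1* (-0.085). Libraries of 1 genotype differed beyond counting noise (chi-square per degree of freedom 19.2 to 63.0). Spread between mice and between the pieces of lung sampled cannot be told apart here.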
